A study of Homo sapiens with 6 samples.

Results

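Large-subunit ribosome assembly factors were examined in K562 cells, a human erythroleukaemia line established from chronic myeloid leukaemia, after transfection with plasmids expressing MXD3 or the fusion STIM1::MXD3. The group held 48 genes whose products act in the nucleolus, nucleoplasm or cytoplasm on the precursor of the 60S ribosomal subunit. The genes were listed by symbol from their role in assembly, with no threshold on a measured value, but with earlier results of these data known. They were matched to the tables by NCBI Gene identifier. All 48 were found among the 25702 identifiers of each table, and all 48 passed the filter on low counts that left 15431 genes for testing.

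A ribosome is built in the nucleolus, where RNA polymerase I transcribes a long precursor RNA that is cut, modified and folded while ribosomal proteins are added. Assembly factors bind the precursor in a set order: early scaffold proteins and RNA helicases arrange the RNA, nucleases remove its internal spacers, GTPases and AAA ATPases drive remodelling steps, and the last factors escort the particle through the nuclear pore and leave it in the cytoplasm. MYC is known for driving transcription of many of these genes in proliferating cells, and MXD3 belongs to the MXD family, which pairs with MAX, binds the same E-box DNA motif as MYC and represses transcription.

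The 3 groups were K562 cells transfected with the pCMV-HA plasmid as empty vector (EV), or with the same plasmid carrying MXD3 or STIM1::MXD3, with 2 libraries per group that the study describes as independent transfections. In STIM1::MXD3, found in paediatric acute myeloid leukaemia, the start of STIM1 stands in place of the putative amino-terminal repression domain of MXD3, and the DNA-binding domain is kept. The plasmids act from a viral CMV promoter in transiently transfected cells of 1 established line. The study gives a general efficiency for this transfection procedure but no share of transfected cells for each library. In such bulk RNA, a change in part of the cells, fewer cells of a kind and less RNA per cell cannot be told apart.

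Total counts were between 53048343 and 63835779 per library, and the 48 genes together held 211092 to 284480 counts, or 0.398% to 0.466%. Levels are given as CPM, the count of a gene relative to the size of its library, scaled between libraries by the trimmed mean of M-values (TMM). MXD3 and STIM1 checked the labels. MXD3 was at 9.33 and 11.7 CPM in EV, 2523 and 2162 CPM in the MXD3 libraries, and 1975 and 1849 CPM in the STIM1::MXD3 libraries, so it rose with both constructs (log2 fold changes 7.80 ± 0.21 and 7.51 ± 0.21 SE, edgeR adjusted P = 4.37e-05 and 5.23e-05). STIM1, which only the fusion carries in part, was at 471 and 453 CPM in the STIM1::MXD3 libraries and between 159 and 205 CPM in the other 4, a log2 fold change of 1.28 ± 0.14 against EV (edgeR adjusted P = 0.359). Erythroid markers of K562 cells were all present, with a sum over 10 genes between 7100 and 9762 CPM. This sum was lower in replicate 2 than in replicate 1 of every group, and its part in the results was not tested. The 15 markers of other cell types summed to 442 to 535 CPM, most of it KRT8 and EPCAM, while MS4A1 was at 0 in every library.

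In EV cells the 48 genes spanned more than 2 orders of magnitude per kb of transcript. NOP53, which brings the RNA exosome to the precursor particle, stood highest at 327.1 ± 37.99 CPM per kb (SD, n = 2). RSL24D1, the placeholder that is later exchanged for ribosomal protein eL24, followed at 154.3 ± 3.80 CPM per kb, and NOC2L, a scaffold protein of the early particle, at 82.7 ± 4.92 CPM per kb. These 3 genes were apart from each other by more than their SD. GNL2, a nucleolar GTPase, was at 76.1 ± 1.11 CPM per kb. NMD3 and RSL1D1, the next in order, did not differ beyond their spread (62.6 ± 7.01 and 62.2 ± 1.21 CPM per kb), nor did PES1 and BRIX1 after them (57.8 ± 3.89 and 56.8 ± 3.52 CPM per kb). At the low end were MDN1 at 5.57 ± 1.43, RBM28 at 4.82 ± 0.13, URB2 at 4.69 ± 0.26 and DDX51 at 4.30 ± 0.80 CPM per kb, where no neighbours differed beyond their spread. The place of RBM28 rests on a transcript model of 15507 nucleotides, and per kb of coding sequence it ranked 28 of 48.

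PPAN was lowest, at 1.03 ± 0.84 CPM per kb, with 51 to 291 counts per library. Its exons lie inside the read-through gene PPAN-P2RY11, which is listed at 0 in all 6 libraries, so reads shared by both may not have been counted and the level of PPAN is uncertain. On GRCh37, 26 of the 48 genes overlap another protein-coding gene, 20 of them an antisense one (URB1, NOP16, MAK16 and PES1 among them), and their counts are uncertain to that extent because the use of strand was not stated. BOP1 was placed by its longest GRCh37 transcript because no canonical transcript mapped to that build.

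**Figure D1:**
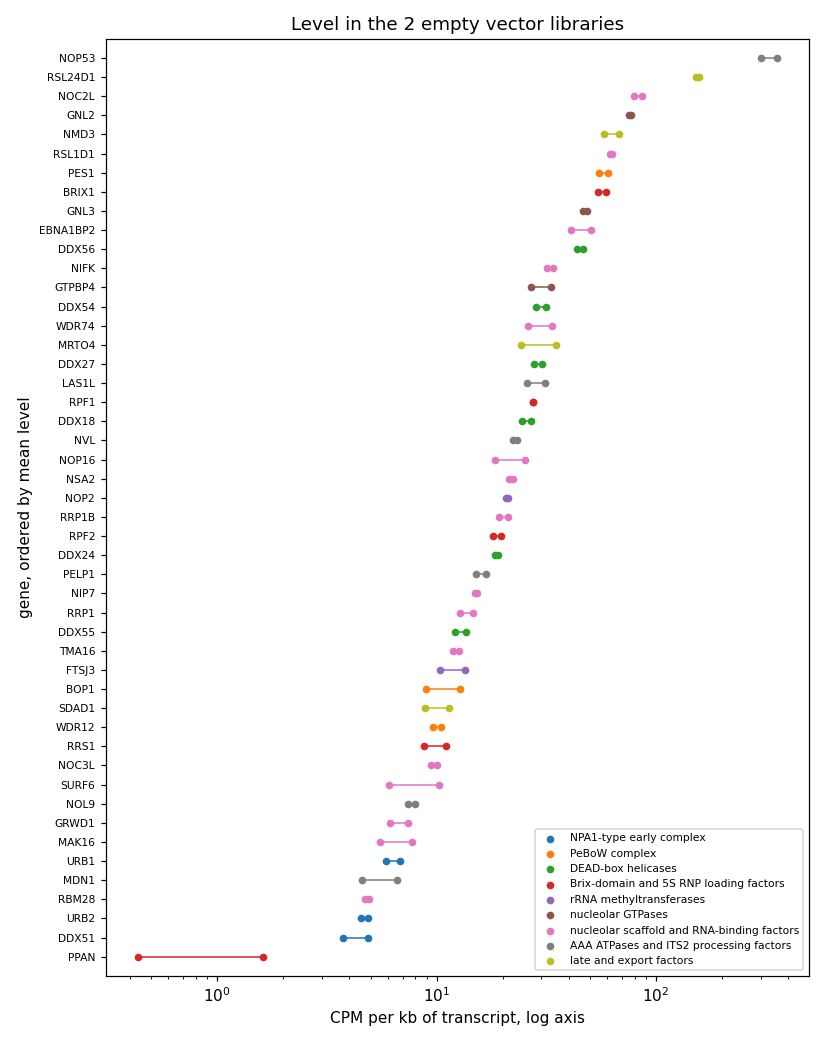
Level of each of the 48 genes in the EV libraries, as CPM per kb of transcript on a log axis, with 1 point per library joined by a line and colours for the role groups. NOP53 and RSL24D1 lie to the right of all others, PPAN lies to the left with its EV libraries far apart, and most neighbours in the order overlap.

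Promoters were read for the E-box CACGTG, the letters bound by the MYC, MAX and MXD proteins, because both constructs keep the DNA-binding domain of MXD3. RefSeq windows of 250 bases before to 50 bases after the start (GRCh38.p14) were available for 40 of the 48 genes, and the missing ones were URB2, BOP1, DDX18, RPF2, RRS1, RRP1B, RSL1D1 and MAK16. The motif reads the same on both strands. It was found in 12 of the 40 windows (30%), compared with 9.96% of the windows of 11468 tested genes and 7.43% of all 27305 windows. The matches below belong to genes whose fold changes are given later, with the motif in capitals and up to 12 bases on each side, 5′ to 3′ along the strand of the gene. The positions of the first motif base count from the transcription start as 1.
MRTO4 (chr1:19251807-19251836, plus strand, position 15): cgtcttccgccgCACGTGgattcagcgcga
TMA16 (chr4:163494684-163494713, plus strand, position 7): cttctcaggcgcCACGTGggattcggcccg
PES1 (chr22:30591880-30591909, minus strand, position 14): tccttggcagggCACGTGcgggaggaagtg
SDAD1 (chr4:75991156-75991185, minus strand, position -228): tacatgctaacaCACGTGaaaaaatttaca
MDN1 upstream match (chr6:89819932-89819961, minus strand, position -155): tttctgtcccacCACGTGctgtgttcgcga
MDN1 downstream match (chr6:89819750-89819779, minus strand, position 28): cgtgtgctcaccCACGTGtggtgcccctct

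Of these 5 genes, MRTO4, TMA16 and PES1 had the motif just after the start, SDAD1 had it far upstream in the window, and MDN1 had it on either side. The other windows with the motif were those of DDX54, NOP2, GNL2, EBNA1BP2, SURF6, NOC3L and PELP1. The log2 fold change with MXD3 against EV had a median of 0.14 over the 12 genes with the motif, of which 7 stood higher, and 0.06 over the 28 genes without it, of which 18 stood higher. With STIM1::MXD3 the medians were 0.16 (9 of 12 higher) and 0.10 (22 of 28 higher). The URB1 window, which belongs to the gene with the smallest p-value in the MXD3 comparison, held no CACGTG.

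With MXD3, the assembly factors were spread around a small positive shift. The median log2 fold change against EV was 0.08, with 30 of 48 genes higher, beside a median of 0.00 and 50.2% higher over all genes tested. The genes ranged from -0.28 for BOP1 to 0.48 for URB2. None of the 48 passed an adjusted P of 0.05 in the edgeR quasi-likelihood test, where 0.00648% of all genes did (1 gene, MXD3 itself). At an unadjusted P under 0.05 edgeR gave 3 of the 48, all higher, beside 1.86% of all genes. They were URB1, URB2 and NOP16.

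The replicate numbers in the labels paired the libraries, in that same-numbered libraries deviated together. With the replicate number as a block, edgeR still called 0 of the 48 genes (0.292% of all genes), and the smallest adjusted P was 0.0549, for URB1. At an unadjusted P under 0.05 this fit gave 12 higher and 2 lower. Over all 15431 genes it gave 1071 higher and 1078 lower. DESeq2 with the same replicate block called 5 of the 48, all higher, beside 2.42% of the 10046 genes that DESeq2 gave an adjusted P, which included 47 of the 48. These were URB1 (adjusted P = 0.00537), SDAD1 (0.0139), MAK16 (0.0244), URB2 (0.0355) and MRTO4. Both MXD3 libraries lay above both EV libraries in 14 genes, beside 16.2% of all genes tested, and below both in 4 genes, beside 14.8%. The 4 genes were RSL1D1, NOP2, RSL24D1 and GNL2. Within replicate pairs, 22 of the 48 (45.8%) were higher with MXD3 in both pairs, beside 30.6% of all genes, and 12 were lower in both.

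The median of the MXD3 comparison moved with single libraries and with the scaling, and the scaling moved the median of all genes too. With total counts in place of TMM the members had 0.12 (36 higher), beside 0.04 over all genes. With GC and length offsets they had 0.05 (27 higher), beside -0.04. Their median was 0.02 without EV replicate 1 or without MXD3 replicate 2, beside 0.02 and -0.02 over all genes. It was 0.13 without EV replicate 2, beside 0.01, and the pairs gave 0.15 for replicate 1 and 0.04 for replicate 2. The abundant members lay lower than the others. The 12 most counted members (108.3 to 467.4 CPM) had a median of -0.06 with 4 of 12 higher, where all genes in that CPM range had a median of -0.05 with 37.1% higher. The other 36 members had a median of 0.11 with 26 higher, where genes in their range had a median of 0.02 with 53.7% higher.

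With STIM1::MXD3, most of the assembly factors stood above EV, again by small amounts. The median log2 fold change was 0.11, with 37 of 48 genes higher, beside a median of 0.01 and 52.1% higher over all genes tested. The range ran from -0.50 for BOP1 to 0.45 for MRTO4. In the edgeR test without the block none of the 48 passed the adjusted threshold (0.00648% of all genes, again MXD3 alone), and 0 had an unadjusted P under 0.05, beside 0.953% of all genes. The edgeR fit with the replicate block gave 9 higher and 1 lower at an unadjusted P under 0.05. Over all 15431 genes it gave 581 higher and 731 lower. With the replicate block edgeR called 0 of the 48 (0.0194% of all genes, lowest adjusted P = 0.185 for MRTO4), and DESeq2 with the block called 1, MRTO4, as higher (adjusted P = 0.0123, beside 0.365% of the 7952 genes given an adjusted P, 47 of the 48 among them).

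Both STIM1::MXD3 libraries lay above both EV libraries in 10 of the 48 genes, beside 12.0% of all genes, and below both in 0, beside 10.0%. In both replicate pairs 25 of the 48 (52.1%) were higher with the fusion, beside 27.1% of all genes, and 4 were lower. The pair medians were 0.17 for replicate 1 and 0.05 for replicate 2. Without EV replicate 1 the median was 0.02, as was that of all genes in the same fit, and without EV replicate 2 it was 0.18. The comparisons of MXD3 and of STIM1::MXD3 share their EV libraries, so the 2 sets of fold changes are not independent of each other.

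Between the constructs themselves the assembly factors were spread to both sides. The median log2 fold change of STIM1::MXD3 against MXD3 was 0.03, with 27 of 48 genes higher, and the genes lay between -0.34 for URB1 and 0.24 for RSL1D1. None passed the adjusted threshold in edgeR (0% of all genes) or in edgeR with the replicate block (0.00648%). DESeq2 with the block gave an adjusted P to 3 of the 48 members and to 772 genes in all, of which 1.42% passed, so it says nothing about the other 45. At an unadjusted P under 0.05 edgeR without the block gave 1 of the 48, URB1, lower with the fusion, beside 1.01% of all genes. With the block it gave 4 higher and 2 lower, beside 496 and 505 of all 15431 genes. The groups were apart in 6 genes that were higher with the fusion (10.9% of all genes) and in 4 that were lower (10.2%), and 15 genes (31.2%) were higher in both pairs, beside 27.5% of all genes. The 12 most counted members had a median of 0.13 with 9 of 12 higher (0.02 with 58.6% higher over all genes in that CPM range), and the other 36 had a median of 0.00 with 18 higher. With total counts in place of TMM the median of the 48 was 0.00 and lay just below 0, beside -0.02 over all genes. Leaving out STIM1::MXD3 replicate 2 gave -0.07, beside -0.02 over all genes.

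**Figure D2:**
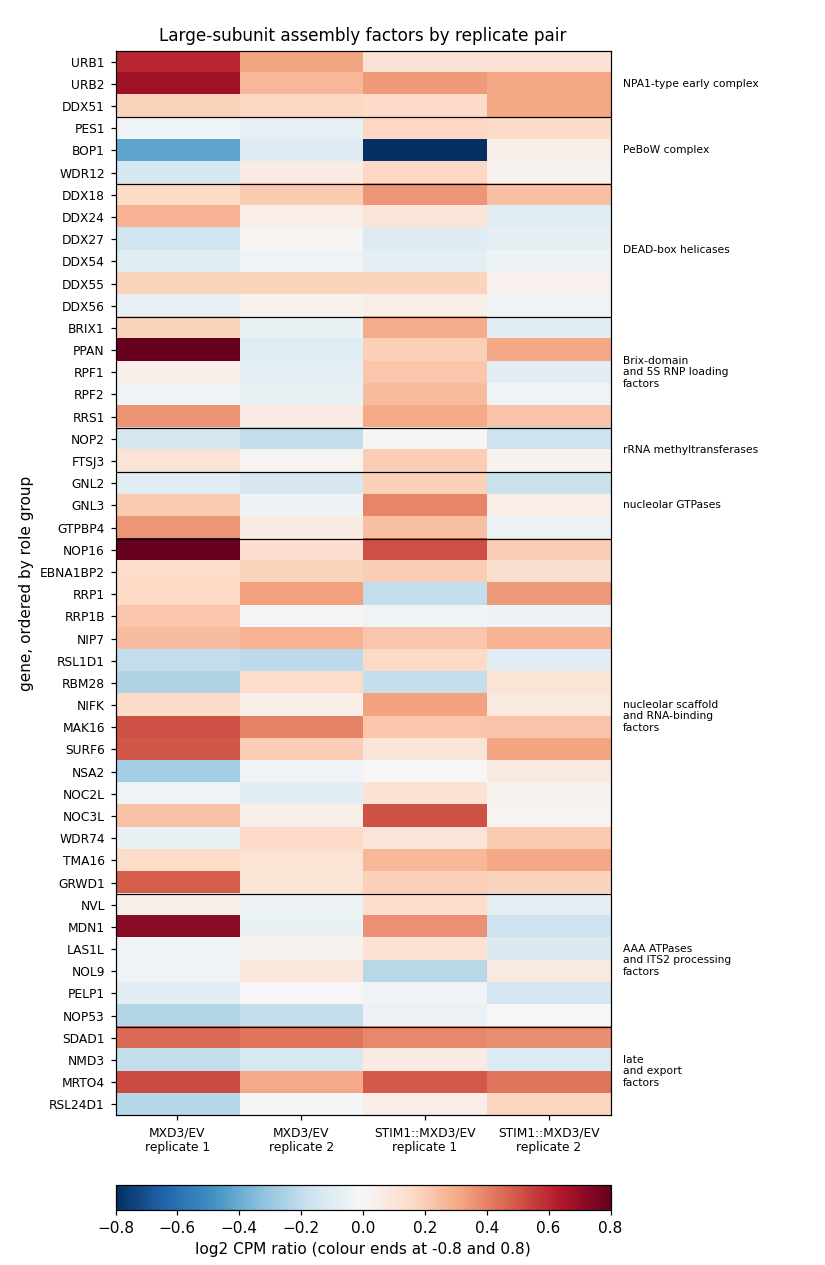
Log2 CPM ratio of each gene to EV within each replicate pair, with genes in rows by role group and the colour scale ending at -0.8 and 0.8. URB1, URB2, MAK16, SDAD1 and MRTO4 are in shades of red in all 4 columns, as are other genes, DDX18, NIP7 and TMA16 among them. The AAA ATPase and spacer-processing group is mostly pale or mixed, and the darkest blue is BOP1 in the replicate 1 pair with the fusion.

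Unless stated, the fold changes, SE and adjusted P of single genes below are from edgeR without the replicate block. The block gave these genes smaller SE. With the block and MXD3, URB1 was at 0.46 ± 0.10 (SE, edgeR adjusted P = 0.0549) and URB2 at 0.48 ± 0.12 (0.11). NOP16 was at 0.47 ± 0.14 (0.158) and NIP7 at 0.26 ± 0.10 (0.265). With the block and the fusion, DDX18 was at 0.30 ± 0.09 (0.421), TMA16 at 0.29 ± 0.11 (0.532) and BOP1 at -0.49 ± 0.19 (0.524). By role, the early complex around URB1 and URB2 had the highest median with MXD3, 0.46. URB1 and URB2 are large scaffold proteins that join the precursor first, together with the helicase DDX51. URB1 (Gene ID 9875, GRCh37 chr21:33683329-33765321, minus strand) was at 63.8 and 73.7 CPM in EV, 97.03 and 91.6 CPM with MXD3, and 69.2 and 79.9 CPM with STIM1::MXD3. Both MXD3 libraries were above all others, and the fusion libraries lay between EV replicate 1 and MXD3 and overlapped EV. The log2 fold change of URB1 was 0.46 ± 0.14 (SE, adjusted P = 0.999) with MXD3 and -0.34 ± 0.14 (SE, adjusted P = 1) for the fusion against MXD3. The latter was -0.20 with offsets for GC content and length.

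URB2 (Gene ID 9816, GRCh37 chr1:229761994-229795947, plus strand) was at 25.2 and 27.3 CPM in EV, 40.4 and 32.8 CPM with MXD3, and 32.01 and 33.9 CPM with STIM1::MXD3. All 4 construct libraries were above both EV libraries, and the fusion libraries lay inside or just below the range of the MXD3 libraries. The log2 fold changes of URB2 were 0.48 ± 0.15 (SE, adjusted P = 0.999) with MXD3 and 0.33 ± 0.15 (SE, adjusted P = 1) with the fusion. DDX51 was at 17.6 and 22.9 CPM in EV, 19.9 and 25.7 CPM with MXD3, and 19.6 and 28.3 CPM with STIM1::MXD3, with the groups overlapping.

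The PeBoW proteins PES1, BOP1 and WDR12 form a complex needed for removal of the second internal spacer. BOP1 (Gene ID 23246, GRCh37 chr8:145486055-145515082, minus strand) had the lowest fold change of the 48 with either construct and was at 29.9 and 20.9 CPM in EV, 22.3 and 19.4 CPM with MXD3, and 14.1 and 21.6 CPM with STIM1::MXD3. The replicate 1 pair with the fusion gave a log2 ratio of -1.08 and the replicate 2 pair 0.05. The BOP1 groups overlapped, and its log2 fold change was -0.50 ± 0.26 (SE, adjusted P = 1). It was -0.22 without EV replicate 1, the highest library, -0.23 without fusion replicate 1, the lowest, and -0.85 without fusion replicate 2. PES1 was at 125 and 137 CPM in EV, 122 and 132 CPM with MXD3, and 140.2 and 153 CPM with STIM1::MXD3, so both fusion libraries were above all others, and its log2 fold change against MXD3 was 0.21 ± 0.12 (SE, adjusted P = 1), and 0.13 without fusion replicate 2. WDR12 was at 84.8 and 77.4 CPM in EV, 77.1 and 81.1 CPM with MXD3, and 95.2 and 78.8 CPM with STIM1::MXD3, with overlapping groups.

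Of the 6 DEAD-box helicases, which unwind and remodel the precursor RNA, DDX18 had the highest fold change with the fusion. DDX18 (Gene ID 8886, GRCh37 chr2:118572267-118589953, plus strand) was at 91.9 and 101 CPM in EV, 103 and 117 CPM with MXD3, and 117 and 119.7 CPM with STIM1::MXD3. Every construct library was above both EV libraries. The log2 fold change of DDX18 with the fusion was 0.30 ± 0.13 (SE, adjusted P = 1), which ranked first of the 48 by P in that comparison. It was 0.25 with the GC and length offsets. DDX24 was at 103 and 106 CPM in EV, 125 and 111 CPM with MXD3, and 111 and 99.6 CPM with STIM1::MXD3. Both MXD3 libraries of DDX24 were above both EV libraries, and the fusion libraries overlapped both other groups. Its log2 fold change for the fusion against MXD3 was -0.17 ± 0.13 (SE, adjusted P = 1). With the GC and length offsets it was -0.08, and it was -0.09 without MXD3 replicate 1 and -0.10 without fusion replicate 2. The other helicases, DDX27, DDX54, DDX55 and DDX56, had log2 fold changes between -0.09 and 0.18 against EV.

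This group held the Brix-domain proteins BRIX1, PPAN, RPF1 and RPF2, and RRS1, which with RPF2 helps to load the 5S ribonucleoprotein. All 5 were higher than EV in the fit with the fusion, by 0.08 to 0.28 on the log2 scale, but only 2 were higher in both replicate pairs, and the group median was -0.09 without STIM1::MXD3 replicate 1. RRS1 was at 15.04 and 18.9 CPM in EV, 19.3 and 19.7 CPM with MXD3, and 18.6 and 22.2 CPM with STIM1::MXD3, and BRIX1 was at 94.3 and 86.3 CPM in EV, 107 and 83.04 CPM with MXD3, and 116 and 81.00 CPM with STIM1::MXD3. RRS1 was higher than its same-numbered EV library with each construct, whereas BRIX1 was high in replicate 1 of both constructs and not in replicate 2. The methyltransferases NOP2 and FTSJ3, which modify the 28S part of the precursor, had log2 fold changes between -0.16 and 0.11 against EV. NOP2 was at 56.1 and 55.00 CPM in EV, 51.1 and 48.03 CPM with MXD3, and 56.5 and 49.04 CPM with STIM1::MXD3, and both of its MXD3 libraries lay below both EV libraries.

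Among the nucleolar GTPases, GNL3, also known as nucleostemin, was at 90.01 and 93.7 CPM in EV, 104 and 90.9 CPM with MXD3, and 118 and 97.3 CPM with STIM1::MXD3. GTPBP4 was at 126 and 154 CPM in EV, 161 and 160.3 CPM with MXD3, and 149 and 149 CPM with STIM1::MXD3. GNL2 was at 181 and 177 CPM in EV, 169 and 161 CPM with MXD3, and 206 and 157 CPM with STIM1::MXD3. GNL2 was lower than EV in both MXD3 libraries, GTPBP4 was higher in both, and GNL3 overlapped EV with MXD3 and lay above it with the fusion. None of these differences passed a test.

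The 16 nucleolar scaffold and RNA-binding factors had a median of 0.17 with the fusion (14 higher) and 0.14 with MXD3 (12 higher), and the former was 0.02 without EV replicate 1. NOP16 (Gene ID 51491, GRCh37 chr5:175810949-175815928, minus strand), a small nucleolar protein, was at 16.3 and 22.3 CPM in EV, 28.6 and 24.4 CPM with MXD3, and 23.3 and 25.6 CPM with STIM1::MXD3. All construct libraries were above both EV libraries, and the replicate 1 pair with MXD3 gave 0.81 against 0.13 in the replicate 2 pair. The log2 fold changes of NOP16 were 0.46 ± 0.19 (SE, adjusted P = 0.999) with MXD3 and 0.34 ± 0.19 (SE, adjusted P = 1) with the fusion. Without EV replicate 1 they were 0.25 and 0.13, and without EV replicate 2 they were 0.71 and 0.59.

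MAK16 (Gene ID 84549, GRCh37 chr8:33342700-33358780, plus strand), an early scaffold protein, was at 19.7 and 27.5 CPM in EV, 28.1 and 36.3 CPM with MXD3, and 22.98 and 32.2 CPM with STIM1::MXD3. It was higher than EV in all 4 same-numbered pairs, more so with MXD3 than with the fusion, and higher in replicate 2 than in replicate 1 of every group. The log2 fold change of MAK16 was 0.45 ± 0.24 (SE, adjusted P = 0.999) with MXD3, and 0.23 without EV replicate 1, 0.71 without EV replicate 2 and 0.24 without MXD3 replicate 2. With the replicate block it was 0.45 ± 0.11 (SE, edgeR adjusted P = 0.0928). NIP7, which binds the precursor RNA, was at 30.9 and 31.4 CPM in EV, 36.6 and 38.1 CPM with MXD3, and 36.1 and 38.1 CPM with STIM1::MXD3, with log2 fold changes of 0.26 ± 0.13 (SE, adjusted P = 0.999) with MXD3 and 0.25 ± 0.13 (SE, adjusted P = 1) with the fusion. With the GC and length offsets these were 0.22 and 0.18. Every construct library of NIP7 was above both EV libraries, and the constructs were almost level.

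TMA16 was at 20.8 and 22.03 CPM in EV, 23.03 and 23.8 CPM with MXD3, and 25.1 and 27.3 CPM with STIM1::MXD3, and it followed the order EV, MXD3 and fusion without overlap, with a log2 fold change of 0.29 ± 0.14 (SE, adjusted P = 1) for the fusion. That fold change was 0.21 with the GC and length offsets. GRWD1, the chaperone of a large-subunit ribosomal protein, was at 32.8 and 39.7 CPM in EV, 45.8 and 42.8 CPM with MXD3, and 37.4 and 44.98 CPM with STIM1::MXD3, with a log2 fold change of 0.29 ± 0.16 (SE, adjusted P = 0.999) for MXD3, which went to 0.16 or 0.44 when EV replicate 1 or EV replicate 2 was left out. Both MXD3 libraries of GRWD1 were above EV, and its fusion libraries overlapped EV. SURF6 was at 25.8 and 43.5 CPM in EV, 36.3 and 49.8 CPM with MXD3, and 27.6 and 54.1 CPM with STIM1::MXD3, with replicate 2 well above replicate 1 in every group. NOC3L was at 34.8 and 32.5 CPM in EV, 40.9 and 33.6 CPM with MXD3, and 49.6 and 32.96 CPM with STIM1::MXD3, where fusion replicate 1 stood above the 5 others.

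RSL1D1 (Gene ID 26156, GRCh37 chr16:11927707-11945437, minus strand), an abundant protein with a ribosomal L1 domain, was at 334 and 343 CPM in EV, 291 and 297 CPM with MXD3, and 372 and 323 CPM with STIM1::MXD3. Both MXD3 libraries were below all others. The log2 fold change of RSL1D1 for the fusion against MXD3 was 0.24 ± 0.12 (SE, adjusted P = 1), and 0.14 without fusion replicate 1. NSA2 was at 92.7 and 96.3 CPM in EV, 76.8 and 94.4 CPM with MXD3, and 92.5 and 101 CPM with STIM1::MXD3. RRP1B was at 97.9 and 107 CPM in EV, 114 and 108 CPM with MXD3, and 96.1 and 104 CPM with STIM1::MXD3. The groups of NSA2 overlapped, RRP1B was lower with the fusion than with MXD3 in both libraries, and their log2 fold changes in the same comparison were 0.18 ± 0.14 (SE, adjusted P = 1) and -0.15 ± 0.12 (SE, adjusted P = 1). NSA2 was at 0.02 without MXD3 replicate 1, 0.34 without MXD3 replicate 2 and 0.10 without fusion replicate 2, and RRP1B was at -0.08 with the GC and length offsets and -0.09 without fusion replicate 1. The remaining members EBNA1BP2, RRP1, RBM28, NIFK, NOC2L and WDR74 lay between -0.06 and 0.25 against EV.

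The AAA ATPases NVL and MDN1 and the factors that remove the second spacer had medians near 0 with both constructs (0.00 with MXD3 and -0.01 with the fusion). MDN1, the largest ATPase of the pathway, was at 84.4 and 122 CPM in EV, 139 and 117 CPM with MXD3, and 109 and 108 CPM with STIM1::MXD3. EV replicate 1 was below the 5 others, both fusion libraries were below both MXD3 libraries and EV replicate 2, and the MXD3 pairs gave 0.72 and -0.05. The log2 fold changes of MDN1 were 0.32 ± 0.19 (SE, adjusted P = 0.999) with MXD3 and -0.24 ± 0.19 (SE, adjusted P = 1) for the fusion against MXD3. The former was 0.08 without EV replicate 1, 0.61 without EV replicate 2 and 0.20 without MXD3 replicate 1, and the latter was -0.07 with the GC and length offsets and -0.13 without MXD3 replicate 1. NOP53 (Gene ID 29997, GRCh37 chr19:48248803-48260315, plus strand) was at 452 and 532 CPM in EV, 384 and 466 CPM with MXD3, and 437 and 534 CPM with STIM1::MXD3. Each MXD3 library was below its same-numbered partners, although the groups overlapped because replicate 2 was higher in each. LAS1L, the spacer endonuclease, its partner kinase NOL9, PELP1 and NVL had log2 fold changes between -0.09 and 0.03 against EV.

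Of the 4 late and export factors, SDAD1 and MRTO4 were higher in every pair. SDAD1 (Gene ID 55153, GRCh37 chr4:76862103-76912115, minus strand) was at 26.5 and 34.04 CPM in EV, 36.4 and 45.8 CPM with MXD3, and 34.6 and 44.1 CPM with STIM1::MXD3. All 4 construct libraries were above both EV libraries, and the 4 pair ratios lay between 0.37 and 0.45. The log2 fold changes of SDAD1 were 0.44 ± 0.20 (SE, adjusted P = 0.999) with MXD3 and 0.38 ± 0.20 (SE, adjusted P = 1) with the fusion. With the replicate block they were 0.44 ± 0.10 and 0.38 ± 0.10 (SE, edgeR adjusted P = 0.0778 and 0.367). In the fit without block, the MXD3 value was 0.27 without EV replicate 1 and 0.25 without MXD3 replicate 2. The fusion value was 0.21 without EV replicate 1, 0.57 without EV replicate 2 and 0.18 without fusion replicate 2.

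MRTO4 (Gene ID 51154, GRCh37 chr1:19578299-19586622, plus strand), which holds the place of the stalk protein P0 on the particle, was at 49.5 and 72.1 CPM in EV, 70.9 and 88.9 CPM with MXD3, and 69.4 and 96.9 CPM with STIM1::MXD3. EV replicate 2 lay above replicate 1 of both constructs, so the groups overlapped, but each construct library was above its same-numbered EV library by 0.30 to 0.52 on the log2 scale. The log2 fold change of MRTO4 with the fusion was 0.45 ± 0.24 (SE, adjusted P = 1), and 0.21 without EV replicate 1, 0.75 without EV replicate 2 and 0.18 without fusion replicate 2. With the replicate block it was 0.46 ± 0.09 (SE, edgeR adjusted P = 0.185). NMD3, the export adaptor, was at 205 and 175 CPM in EV, 179.5 and 159.8 CPM with MXD3, and 214 and 162 CPM with STIM1::MXD3, and RSL24D1 was at 297 and 286 CPM in EV, 253 and 285 CPM with MXD3, and 308 and 323 CPM with STIM1::MXD3. Both RSL24D1 libraries with MXD3 were below both EV libraries and below the fusion, and the log2 fold change of the fusion against MXD3 was 0.23 ± 0.12 (SE, adjusted P = 1), and 0.13 without MXD3 replicate 1. NMD3 overlapped between all groups.

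**Figure D3:**
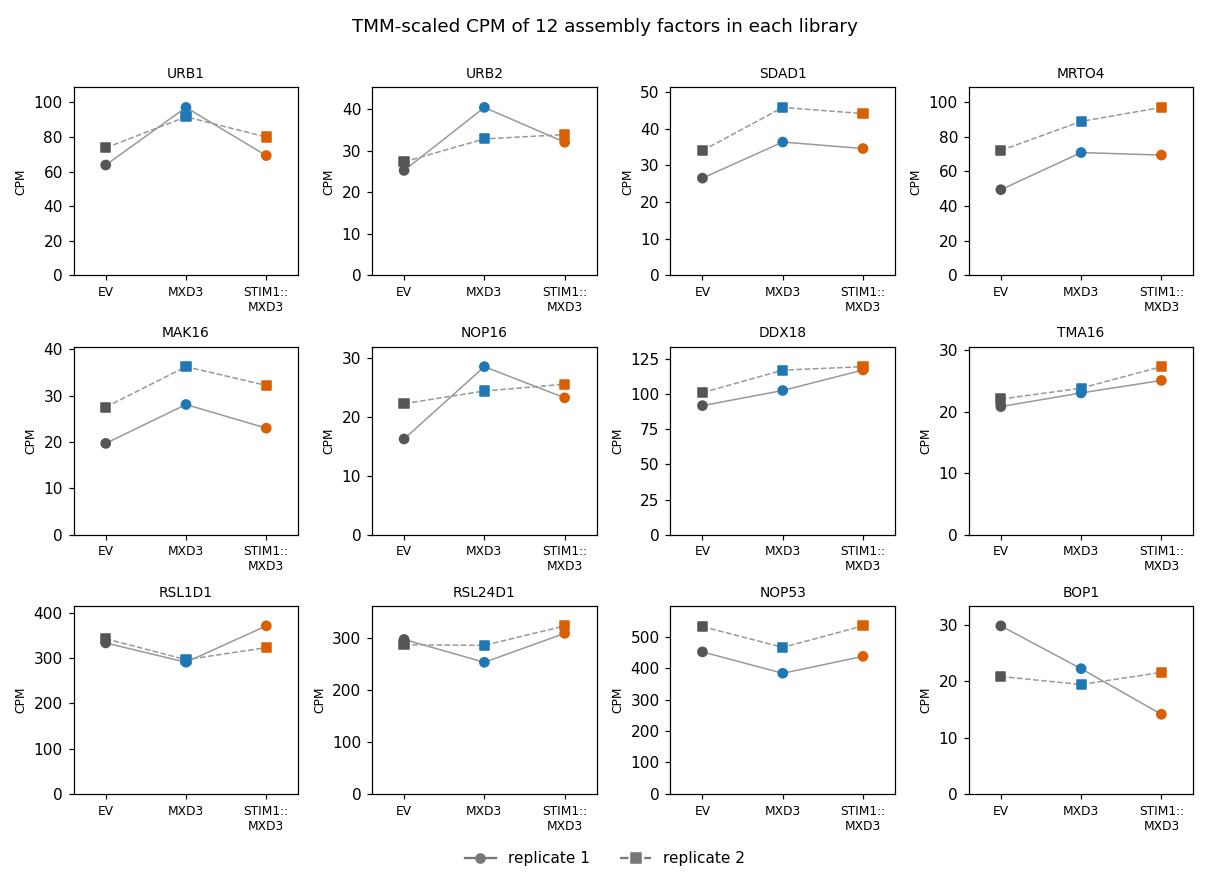
TMM-scaled CPM of 12 of the genes in each library, with circles and solid lines for replicate 1 and squares and dashed lines for replicate 2, and every axis starting at 0. URB1 peaks in the MXD3 libraries, SDAD1, MRTO4 and MAK16 show parallel lines with replicate 2 higher, RSL1D1 is lowest with MXD3, and BOP1 crosses between replicates.

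**Figure D4:**
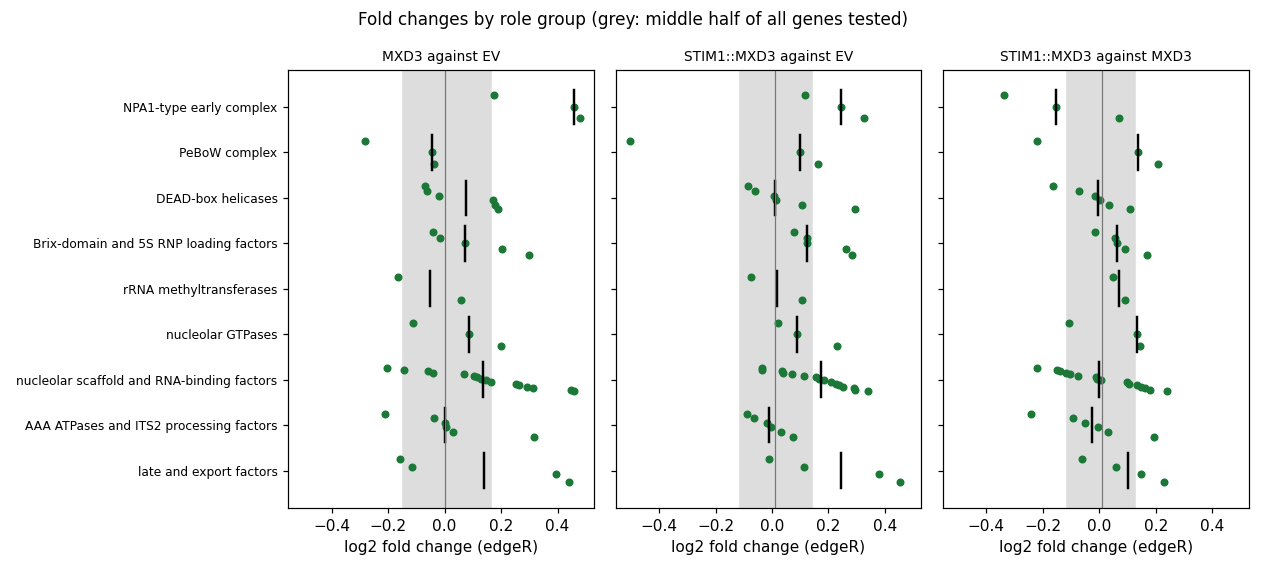
Log2 fold changes of the 48 genes by role group in the 3 comparisons, with 1 point per gene, black bars at the group median, the grey line at the median of all genes tested and the grey band from the lower to the upper quartile of all genes. Most genes lie inside or just above the grey band, and against EV those farthest out are BOP1 to the left and URB2, URB1, SDAD1, MRTO4, MAK16 and NOP16 to the right with MXD3 or the fusion. Between the constructs URB1 is farthest left and RSL1D1 farthest right.

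The rest of the pathway gave a wider view. The 54 small-subunit assembly factors tested had a median log2 fold change of 0.14 with the fusion (49 higher) and 0.10 with MXD3 (39 higher). Over all genes 52.1% were higher with the fusion and 50.2% with MXD3. The 14 subunits and factors of RNA polymerase I had medians of 0.10 with each construct. The 16 proteins of box C/D and H/ACA snoRNPs, which guide RNA modification, had 0.10 with the fusion (15 higher) and 0.05 with MXD3 (11 higher). A further 22 large-subunit assembly factors outside the 48 had 0.09 with the fusion (18 higher) and -0.01 with MXD3 (10 higher). With the fusion, the medians of the replicate 1 and replicate 2 pairs were 0.19 and 0.055 for the small-subunit factors. They were 0.14 and 0.02 for the 22 further factors, 0.11 and 0.09 for RNA polymerase I, and 0.12 and 0.09 for the snoRNP proteins. In edgeR without the block 0 genes of these lists were called in either comparison. With MXD3, DESeq2 with the block called 1 small-subunit factor and 1 of the 22 further large-subunit factors, both higher. Of the RNA polymerase I genes it called 1 higher and 1 lower, beside 2.42% of all genes given an adjusted P. With the fusion it called 0 genes of these lists, beside 0.365%.

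The 47 large-subunit ribosomal protein genes, the products that these factors assemble, had another pattern. With MXD3 their median log2 fold change against EV was -0.24 and 0 of 47 were higher, while with the fusion the median was 0.00 (0.0050) and 26 were higher. The 47 genes summed to between 44590 and 54720 CPM per library, and genes of a like level were not set beside them. All genes at 108.3 to 467.4 CPM had a median of -0.05 with MXD3 (37.1% higher). None of the 47 was called by edgeR. With MXD3, 4 had an unadjusted edgeR P under 0.05, all lower, beside 1.86% of all genes. With the replicate block it was 38, all lower, beside 1071 higher and 1078 lower of all 15431 genes. DESeq2 with the replicate block called 13 with MXD3, all lower, beside 2.42% of the 10046 genes given an adjusted P. The median with MXD3 stayed below 0 under every setting tried, between -0.34 and -0.15, although without MXD3 replicate 1, 9 of 47 were higher. In the same libraries the 48 assembly factors had a median of 0.08, and the difference between both lists was not tested.

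Part of the spread of the 48 genes went with the replicate number. Replicate 2 was higher than replicate 1 in all 3 groups in 23 of the 48 genes (47.9%), compared with 28.6% of all genes tested, and lower in all 3 groups in 9 (18.8%, compared with 30.2%). The median log2 difference of replicate 2 from replicate 1 was 0.12 in EV, 0.05 with MXD3 and 0.08 with the fusion. These lie beside medians of 0.08 and 0.11 for the constructs against EV. The summed level of the 48 genes was 4145 and 4428 CPM in EV, 4208 and 4397 CPM with MXD3, and 4497 and 4523 CPM with the fusion. Both fusion libraries were above all others in this TMM-scaled sum, and the MXD3 libraries overlapped EV. As shares of total counts, without TMM, all groups overlapped. The shares were 0.398% and 0.450% in EV, 0.424% and 0.452% with MXD3, and 0.432% and 0.466% with the fusion.

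**Figure D5:**
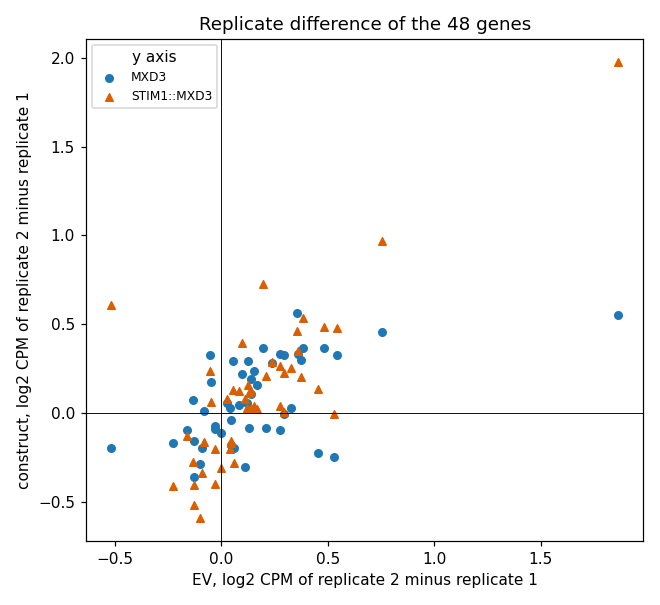
Log2 CPM of replicate 2 minus replicate 1 for each of the 48 genes, in EV on the x axis and in MXD3 (circles) or STIM1::MXD3 (triangles) on the y axis. Most points lie in the upper right or lower left, and the point farthest right is PPAN, at 1.86 in EV.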

How the data were processed

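The authors deposited raw counts per gene for each of the 6 libraries, under NCBI Gene identifiers. Per the labels, the processing named HISAT2 2.2.1, featureCounts 2.0.1 and hg19. The study used paired-end poly A libraries and names the DRAGEN pipeline for RNA sequencing. The annotation, the use of strand and how read pairs were counted are not given in the sources used here, so overlapping genes are uncertain. Of 25702 identifiers, 23696 matched a symbol.

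From these counts, genes were filtered with filterByExpr (15431 kept), scaled by TMM and tested two-sided with edgeR 4.0.16 (quasi-likelihood F test, R 4.3.3), in 1 fit over 6 libraries without covariate, with Benjamini-Hochberg adjustment over all genes tested and a threshold of 0.05. Log2 CPM used a prior count of 2. DESeq2 1.42.0, a replicate block, GC and length offsets, other scalings and filters, and leaving out each library were alternatives. The script was tested on simulated data. Levels per kb used GRCh37 transcript lengths. The members and lists were chosen with earlier results of these data known. Named genes were the 8 members with the smallest P per comparison, and further members were described by level. P-values set a difference against the spread between the 2 transfections of a group. This spread was estimated over all 3 groups together and drawn toward that of other genes. With the replicate block, the shift between replicate numbers was taken out of it.

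The replicate numbers were checked for pairing. After subtracting each group's mean, libraries with the same number correlated over all genes tested. Between EV and MXD3 r was 0.270, EV and the fusion gave 0.364, and the constructs gave 0.450. All were above 0.1, so the numbers were taken to pair the libraries.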

Additional observations from a re-analysis of the deposited data

How the results depend on the processing

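The number of members called was 0 in each comparison under every alternative except DESeq2 with the replicate block, which called 1 with STIM1::MXD3 against EV and 5 with MXD3 against EV, and which gave an adjusted P to 3 of the 48 members for STIM1::MXD3 against MXD3. In edgeR with the replicate block it was 0 in all 3 comparisons, so this fit changed no call. The median log2 fold change of the members with STIM1::MXD3 against EV ranged from 0.0215 to 0.1802 when each library was left out in turn, and with MXD3 against EV from 0.0178 to 0.1325. For STIM1::MXD3 against MXD3 it was -0.0019 with total counts in place of TMM (-0.0223 over all genes), and between -0.0741 and 0.0793 with a library left out. The cause was not tested. Of the settings of single named genes, 349 kept their direction and side of the threshold, 5, all from DESeq2 with the replicate block, passed it, and 6 kept their direction but got no adjusted P, all from DESeq2 with the replicate block for STIM1::MXD3 against MXD3. Depth limits PPAN most, with 51 to 291 counts per library. A library left alone in its group was assumed to vary like the other groups.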
